A study of Danio rerio with 8 samples.

Results

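Gene expression in *slc30a1* mutants and controls was compared at 2 days post-fertilization (dpf) across all genes measured in *sox10*:kikGR+ cells. Of the 8 SMART-seq libraries of the study, 4 were of this stage, 2 of mutants and 2 of controls. Levels are in FPKM, a measure of sequenced fragments corrected for transcript length and for library size. Genes averaging 0.5 FPKM or more across these 4 libraries were compared, which left 15453 of the 25926 gene identifiers listed. The other 4 libraries, of the same genotypes at 2.5 dpf, were used only to ask whether the effect of genotype differed between the stages. Embryos of both genotypes carried *Tg(sox10:kikGR)*, in which regulatory DNA of *sox10* drives a photoconvertible fluorescent protein in NCCs and their derivatives, and fluorescent cells were sorted from digested embryos with dead cells gated out. Mutants carried CRISPR/Cas9 alleles in both *slc30a1a* and *slc30a1b*, and in the crosses of the study the double homozygous embryos had small heads and small eyes. Controls were siblings whose genotypes are not given one by one. For work after the first crosses, the study mated parents that were heterozygous for *slc30a1a* and lacked *slc30a1b* altogether, and siblings from that cross lack *slc30a1b* too. The sources also do not say how many embryos made up a library or whether replicates were separate clutches, so that p-values measure the spread between these libraries, which may be technical.

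SLC30A1, also called ZnT1, is a transporter that moves zinc out of the cytoplasm across the plasma membrane. When free zinc rises in a cell, the metal-sensing transcription factor MTF1 binds it and switches on metallothionein genes, whose small cysteine-rich products hold zinc and copper. NCCs leave the dorsal neural tube and form, among other tissues, pigment cells, peripheral glia and the skeletal precursors of the PA, where Dlx, Endothelin and Jagged-Notch signals divide each arch into dorsal, intermediate and ventral domains. p53 is a transcription factor that is stabilized by DNA damage and several other stresses, and its best-known targets stop the cell cycle, restrain p53 itself or start apoptosis.

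The FPKM of a library summed to between 680541 and 697012, and between 22265 and 24067 genes per library were above 0. The number of reads behind a value is unknown, so counting error cannot be given. *sox10* itself was at 53.8 and 84.9 FPKM in controls and 47.6 and 70.32 FPKM in mutants, and *twist1a*, a factor of the crest mesenchyme, was at 127 and 226 FPKM in controls and 270.3 and 279 FPKM in mutants. The zebrafish crest marker *crestin*, however, was at no more than 0.32 FPKM in any library and was not tested. RNA of other cell types was abundant. *lyz*, the lysozyme of neutrophils and macrophages, was at 38526 and 39656 FPKM in controls and 14566 and 23085 FPKM in mutants, and embryonic globin genes were also among the most abundant. The controls also differed from each other. The summed level of 23 heat shock and chaperone genes was 16220 FPKM in control replicate 1 against 6634 FPKM in replicate 2. That of 37 neuron genes was 1404 against 767 FPKM, and that of 30 dorsal arch genes was 333 against 504 FPKM. The part of these differences in the results was not tested. Where a marker list of a tissue was lower in mutants, fewer cells of that tissue among those sorted and less RNA per cell cannot be told apart in bulk samples. Whether the sorts differed in their share of other cell types was not tested.

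**Figure D1:**
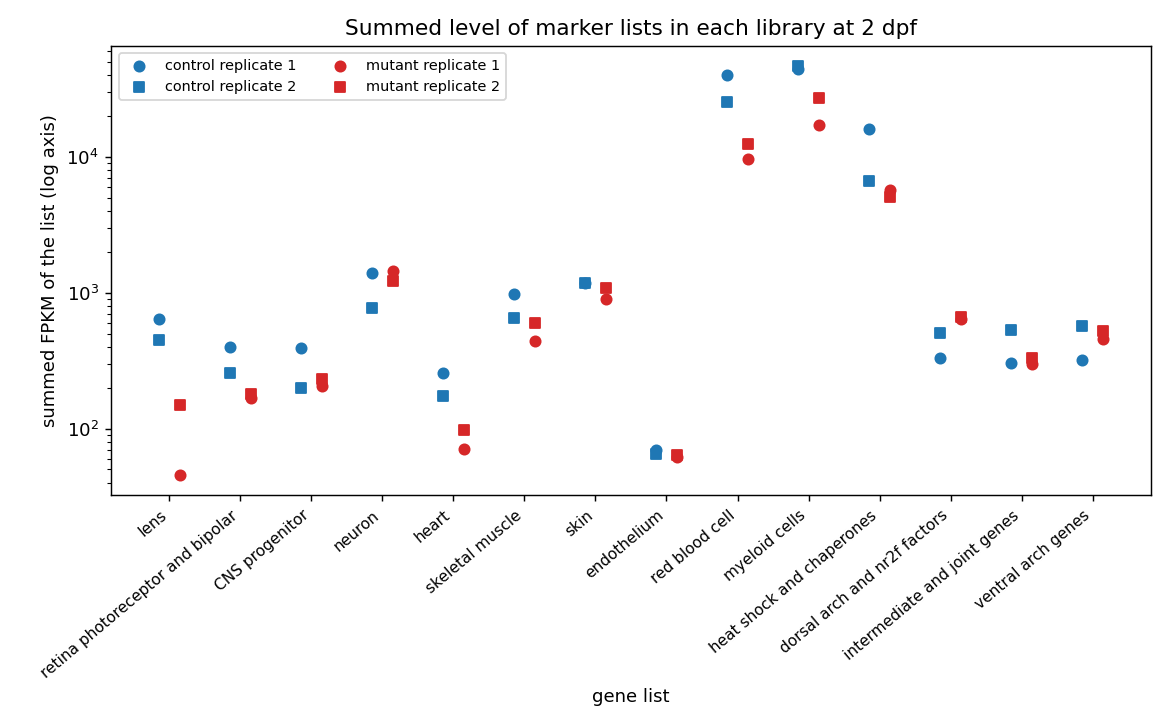
Summed FPKM (vertical log axis) of 14 marker lists in each of the 4 libraries at 2 dpf, with controls in blue, mutants in red, circles for replicate 1 and squares for replicate 2. Lens, retina, heart, skeletal muscle, skin, endothelium, red blood cell, myeloid and heat shock sums were lower in both mutants than in both controls. The endothelium sums differed little, at 69.64 and 65.3 FPKM in controls and 61.44 and 63.93 FPKM in mutants. Control replicate 1 stood apart for heat shock genes.

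In mutants, 6 of 23 p53 targets, the metallothionein *mt2* and 5 ferritin genes rose, as did a number of genes close to silent in controls. Among the genes that fell were 18 of 32 lens genes, 8 of 23 retina genes, 9 of 20 red blood cell genes and 5 of 33 myeloid genes. Of the 15453 genes, 544 (3.52%) were called changed by limma at an adjusted p under 0.05, 390 (2.52%) of them upwards in mutants and 154 (0.997%) downwards. The unadjusted p was under 0.05 for 3806 of the 15453, and such counts for the lists below are to be read against that share. Counts of called members are likewise to be read against the 3.52% of all genes. The lists were chosen with earlier results of these data known, so these counts describe the lists and test nothing. In the median, genes called higher rose by 1.19 and genes called lower fell by 1.54 on the log2 scale, and 304 of those higher and 136 of those lower changed by a log2 of 1 or more. In 178 of the 390 genes that rose the control mean was under 1 FPKM, and the log2(FPKM + 1) scale understates the change of such genes. Any with a control mean under 0.5 FPKM passed the filter only through their mutant level. In 48 of the 154 genes that fell the mutant mean was under 1 FPKM. Any of these with a mutant mean under 0.5 FPKM passed only through their control level. Without the filter 47 genes were called. The mutant and control libraries of all 544 genes did not overlap, but neither did those of 56.9% of all genes tested. The median gene was 0.18 higher in mutants on the log2 scale, and list medians below are to be read against that shift. After median-ratio rescaling, which put the median at -0.02, 213 genes were higher and 243 lower. Without control replicate 1 or 2 no gene, and so no member of any list, was called by limma, while the unadjusted p was under 0.05 for 3092 and 3248. Leaving out mutant replicate 1 or 2 left 83 or 227 calls.

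**Figure D2:**
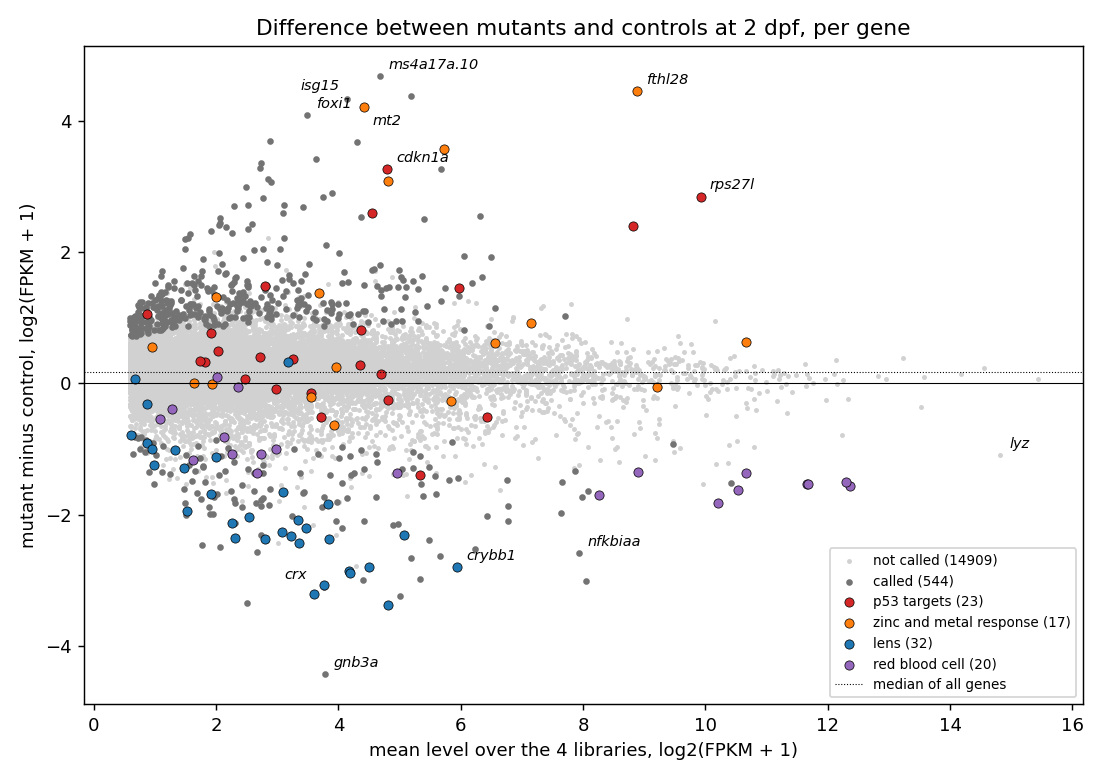
Mutant minus control difference in log2(FPKM + 1) (vertical axis) against the mean log2(FPKM + 1) over the 4 libraries (horizontal axis) for each of the 15453 genes tested at 2 dpf, with called genes in dark grey and 4 gene lists in colour. Red p53 targets and orange metal genes reach far above 0, while lens genes (blue) and red blood cell genes (purple) lie mostly below it.

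The targeted genes were read first. *slc30a1a* was at 12.1 and 11.7 FPKM in controls and 5.96 and 7.06 FPKM in mutants (log2 fold change -0.79, standard error 0.18, adjusted p = 0.0676). Both mutants lay below both controls but the difference did not pass the threshold. *slc30a1b* was listed at 0 in 3 of the 4 libraries and at 0.14 FPKM in mutant replicate 1, so that it checks nothing. None of the 7 tested zinc exporters of the SLC30 family, *slc30a1a* among them, was called (2 had an unadjusted p under 0.05), and *slc30a7*, which fills the early secretory pathway with zinc, was at 28.2 and 37.3 FPKM in controls and 29.1 and 36.1 FPKM in mutants. Of 7 importers of the SLC39 family, which bring zinc into the cytoplasm, 1 rose. *slc39a6*, an importer of the plasma membrane, went from 8.12 and 7.90 FPKM in controls to 19.9 and 19.7 FPKM in mutants (log2 fold change 1.21, standard error 0.16, adjusted p = 0.0228), and *slc39a7*, which releases zinc from the endoplasmic reticulum, was at 56.8 and 72.4 FPKM in controls and 72.05 and 88.1 FPKM in mutants (adjusted p = 0.380).

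Of 17 metal-response genes tested, 6 rose (35.3%, against 3.52% of all genes), none fell, and the list median was 0.61. This list was chosen with earlier results of these data known, so the share is no test. *mt2* was close to absent in controls and high in both mutants, going from 0.88 and 1.36 FPKM in controls to 29.2 and 49.8 FPKM in mutants (log2 fold change 4.22, standard error 0.28, adjusted p = 0.00267). The other 5 were genes of the ferritin heavy chain like family (*fthl*). Ferritin heavy chains form the shell in which cells store iron. *fthl28* rose from 26.8 and 53.01 FPKM in controls to 585 and 1221 FPKM in mutants (log2 fold change 4.45, standard error 0.43, adjusted p = 0.00746). *fthl29* rose from 3.87 and 5.51 FPKM in controls to 33.8 and 64.5 FPKM in mutants (log2 fold change 3.08, standard error 0.32, adjusted p = 0.0104) and *fthl30* rose from 6.27 and 5.97 FPKM in controls to 18.03 and 16.99 FPKM in mutants (adjusted p = 0.0159). Under the symbol *fthl27* there were 2 identifiers, and they differed in size of change. ENSDARG00000116586 rose from 7.77 and 5.86 FPKM in controls to 64.2 and 130.3 FPKM in mutants (log2 fold change 3.58, standard error 0.34, adjusted p = 0.00743), while the abundant ENSDARG00000031776 was at 1548 and 1026 FPKM in controls and 1773 and 2130 FPKM in mutants, with an adjusted p of 0.166. *fthl31* likewise had a low copy that rose from 1.16 and 1.40 FPKM in controls to 4.96 and 4.37 FPKM in mutants (adjusted p = 0.0217) and a higher one at 74.5 and 121 FPKM in controls and 150.1 and 219 FPKM in mutants. These copies are alike in sequence, and reads shared between them could be split unevenly by the quantification. Values of single copies are thus uncertain, and calls within the *fthl* family count as few independent measurements. Without the filter 1 of 20 metal-response genes was called. The conventional ferritin heavy chain *fth1a* was at 623 and 580.3 FPKM in controls and 584 and 570.4 FPKM in mutants and was not called.

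Of 23 p53 targets tested, 6 rose, 1 fell and 16 were not called, and the summed level of the list was 685 and 768 FPKM in controls against 3221 and 2582 FPKM in mutants. *cdkn1a*, which encodes the cyclin-dependent kinase inhibitor p21, rose from 4.34 and 3.97 FPKM in controls to 57.9 and 40.6 FPKM in mutants (log2 fold change 3.26, standard error 0.22, adjusted p = 0.00267). *rps27l*, a ribosomal protein paralog induced by p53, rose from 214 and 255 FPKM in controls to 1956 and 1455 FPKM in mutants (log2 fold change 2.85, standard error 0.20, adjusted p = 0.00273) and made the largest contribution to the sum. *gadd45aa*, a growth arrest gene, rose from 5.20 and 5.99 FPKM in controls to 37.6 and 40.5 FPKM in mutants (log2 fold change 2.605, standard error 0.17, adjusted p = 0.00267). *ccng1*, encoding cyclin G1, rose from 157 and 129.8 FPKM in controls to 817 and 700.5 FPKM in mutants (log2 fold change 2.398, adjusted p = 0.00288). *mdm2*, whose product ubiquitinates p53 for degradation, rose from 2.6 and 2.75 FPKM in controls to 9 and 9.51 FPKM in mutants (log2 fold change 1.48, adjusted p = 0.0141). In each of these 5 genes the replicates of a genotype lay within 1.5-fold of each other and the groups were far apart. The high-level target *phlda3* was at 21.04 and 47.9 FPKM in controls and 89.2 and 89.4 FPKM in mutants and was not called (adjusted p = 0.0813), and its controls differed by more than 2-fold. Without mutant replicate 1 or 2, 4 members were called higher.

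**Figure D3:**
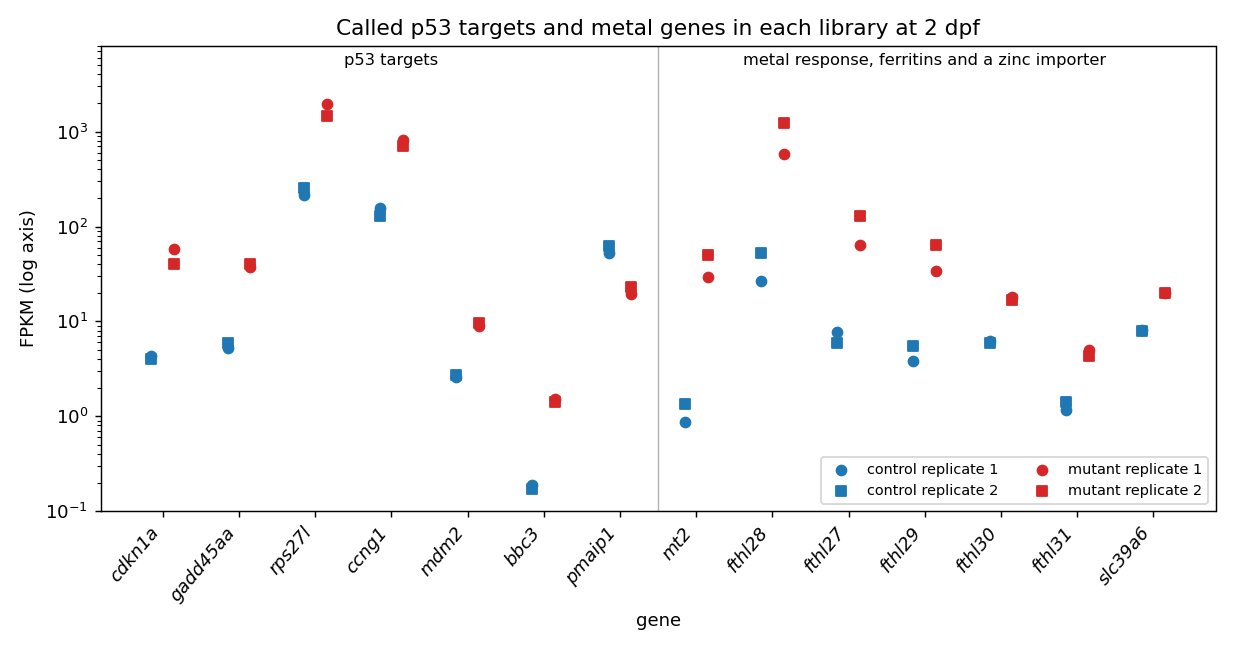
FPKM (vertical log axis) of the 7 called p53 targets, the 6 called metal-response genes and *slc39a6* in each library at 2 dpf, controls in blue and mutants in red. Both mutants lie above both controls for every gene shown except *pmaip1*, and the gap between genotypes exceeds the gap between replicates on the log axis.

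The apoptotic members of the p53 programme did not move as 1 group. *bbc3*, encoding the killer protein Puma, rose at low level from 0.19 and 0.17 FPKM in controls to 1.52 and 1.42 FPKM in mutants (log2 fold change 1.07, standard error 0.14, adjusted p = 0.0203), whereas *pmaip1*, encoding Noxa, fell from 52.5 and 61.7 FPKM in controls to 19.3 and 22.9 FPKM in mutants (log2 fold change -1.39, standard error 0.18, adjusted p = 0.0210). Of these 2, *bbc3* passed the filter only through its mutant level. Of 19 Bcl2 family and caspase genes tested, the other 2 called were *casp8*, an initiator caspase of death receptors, which rose from 1.60 and 1.33 FPKM in controls to 6.25 and 5.87 FPKM in mutants (log2 fold change 1.52, adjusted p = 0.0140), and *mcl1a*, a survival factor of the Bcl2 family, which fell from 912 and 943 FPKM in controls to 466 and 515 FPKM in mutants (log2 fold change -0.92, adjusted p = 0.0331). *baxa*, a pore-forming effector, was at 15.98 and 12.1 FPKM in controls and 23.8 and 26.7 FPKM in mutants (adjusted p = 0.0802). The called genes were 21.1% of the 19, against 3.52% of all genes, and with no filter on low values none of 22 was called.

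None of 41 DNA replication and 34 mitosis genes was called. The unadjusted p was under 0.05 for 8 and 2 of them, all higher in mutants, and for 3806 of all 15453 genes. The list medians of 0.28 and 0.11 lay on either side of the 0.18 of all genes. *pcna*, the sliding clamp of DNA polymerases, was at 542 and 671 FPKM in controls and 717 and 669 FPKM in mutants. *cdk1*, the kinase that drives entry into mitosis, was at 135 and 159 FPKM in controls and 114 and 129 FPKM in mutants. In both genes the differences between genotypes were of the size of those between replicates.

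In 4 other stress and metabolic lists 1 gene each was called, from 2.78% to 5.88% of a list, against 3.52% of all genes. Among 30 genes of the unfolded protein and amino acid stress responses, *nupr1a*, a stress-induced nuclear protein, rose from 36.4 and 36.6 FPKM in controls to 148 and 134 FPKM in mutants (log2 fold change 1.92, standard error 0.16, adjusted p = 0.00493), while *hspa5*, the main chaperone of the endoplasmic reticulum, was at 553 and 603 FPKM in controls and 385 and 386 FPKM in mutants and *xbp1*, a transcription factor of the same response, at 391 and 404 FPKM in controls and 254 and 275 FPKM in mutants, neither called (adjusted p = 0.0875 and 0.0886). Among 17 genes of the methionine and folate cycles, *mat2al*, which encodes an enzyme that makes S-adenosylmethionine, rose from 2.42 and 2.15 FPKM in controls to 21.3 and 23.7 FPKM in mutants (log2 fold change 2.84, standard error 0.18, adjusted p = 0.00258). Among 26 genes of glutathione and oxidative defence, *gpx1b*, a glutathione peroxidase, rose from 3.65 and 2.02 FPKM in controls to 9.52 and 8.59 FPKM in mutants (adjusted p = 0.0377), and the abundant *prdx2* was at 984 and 979 FPKM in controls and 978 and 1065 FPKM in mutants. *adma*, which encodes the vascular peptide adrenomedullin, was the 1 gene called of 36 of glycolysis and hypoxia, rising from 5.56 and 5.99 FPKM in controls to 13.01 and 12.3 FPKM in mutants (adjusted p = 0.0359). No other member of these 4 lists was called, and their medians ran from -0.01 to 0.35.

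The interferon-stimulated gene *isg15*, which encodes a ubiquitin-like modifier, had one of the largest rises of all, from 0.74 and 0.60 FPKM in controls to 34.3 and 31.1 FPKM in mutants (log2 fold change 4.33, standard error 0.18, adjusted p = 0.000788). None of the other 7 interferon genes tested was called higher. *irf7*, a transcription factor that amplifies the interferon response, fell from 13.5 and 10.4 FPKM in controls to 5.30 and 5.51 FPKM in mutants (adjusted p = 0.0486), and *irf9* was at 4.04 and 3.51 FPKM in controls and 7.02 and 7.5 FPKM in mutants (adjusted p = 0.0668). Of 22 heat shock genes, whose sum was highest in control replicate 1, only *serpinh1b*, the collagen chaperone Hsp47, was called, falling from 171 and 144 FPKM in controls to 50.2 and 62.6 FPKM in mutants (log2 fold change -1.47, standard error 0.19, adjusted p = 0.0200), and *hsp70.2*, at 3553 and 1348 FPKM in controls and 1156 and 1072 FPKM in mutants, shows how far the controls lay apart. Of 27 immediate early genes, which respond within minutes to growth factors and also to cell dissociation, 4 fell (14.8%, against 3.52% of all genes). They were *nr4a3* (from 2.90 and 2.82 FPKM in controls to 0.95 and 0.69 FPKM in mutants, adjusted p = 0.0306), *egr3* (from 6.98 and 10.3 FPKM in controls to 3.47 and 2.6 FPKM in mutants, adjusted p = 0.0465), *nr4a1* and *klf2b*. With no filter on low values none of the 27 was called. None and 1 of the 27 were called without mutant replicate 1 and 2. The abundant *fosab* was at 1788 and 2360 FPKM in controls and 1707 and 1410 FPKM in mutants, which was not called.

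Housekeeping programmes had no called member. None of 31 ribosome biogenesis genes, 80 cytosolic ribosomal protein genes, 34 proteasome genes, 20 aminoacyl tRNA synthetase genes, 63 nuclear and 13 mitochondrial genes of the respiratory chain, 20 cholesterol synthesis genes and 39 lysosome and autophagy genes passed the test. Of these 300 genes, 54 had an unadjusted p under 0.05, 52 of them higher in mutants. That p was under 0.05 for 3806 of all 15453 genes. Ribosome biogenesis had the highest median of these lists, 0.56, with both mutants above both controls in 29 of 31 genes, as for *dkc1*, which encodes dyskerin (117 and 142 FPKM in controls and 201 and 188 FPKM in mutants). The proteasome had a median of 0.36, with both mutants above both controls in 27 of 34 genes, as for *psmb7* (661 and 723 FPKM in controls and 1011 and 1077 FPKM in mutants, adjusted p = 0.0848). Over all genes tested, both mutants lay above both controls in 44.8%. After median-ratio rescaling the medians of ribosome biogenesis and the proteasome were 0.31 and 0.10.

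**Figure D4:**
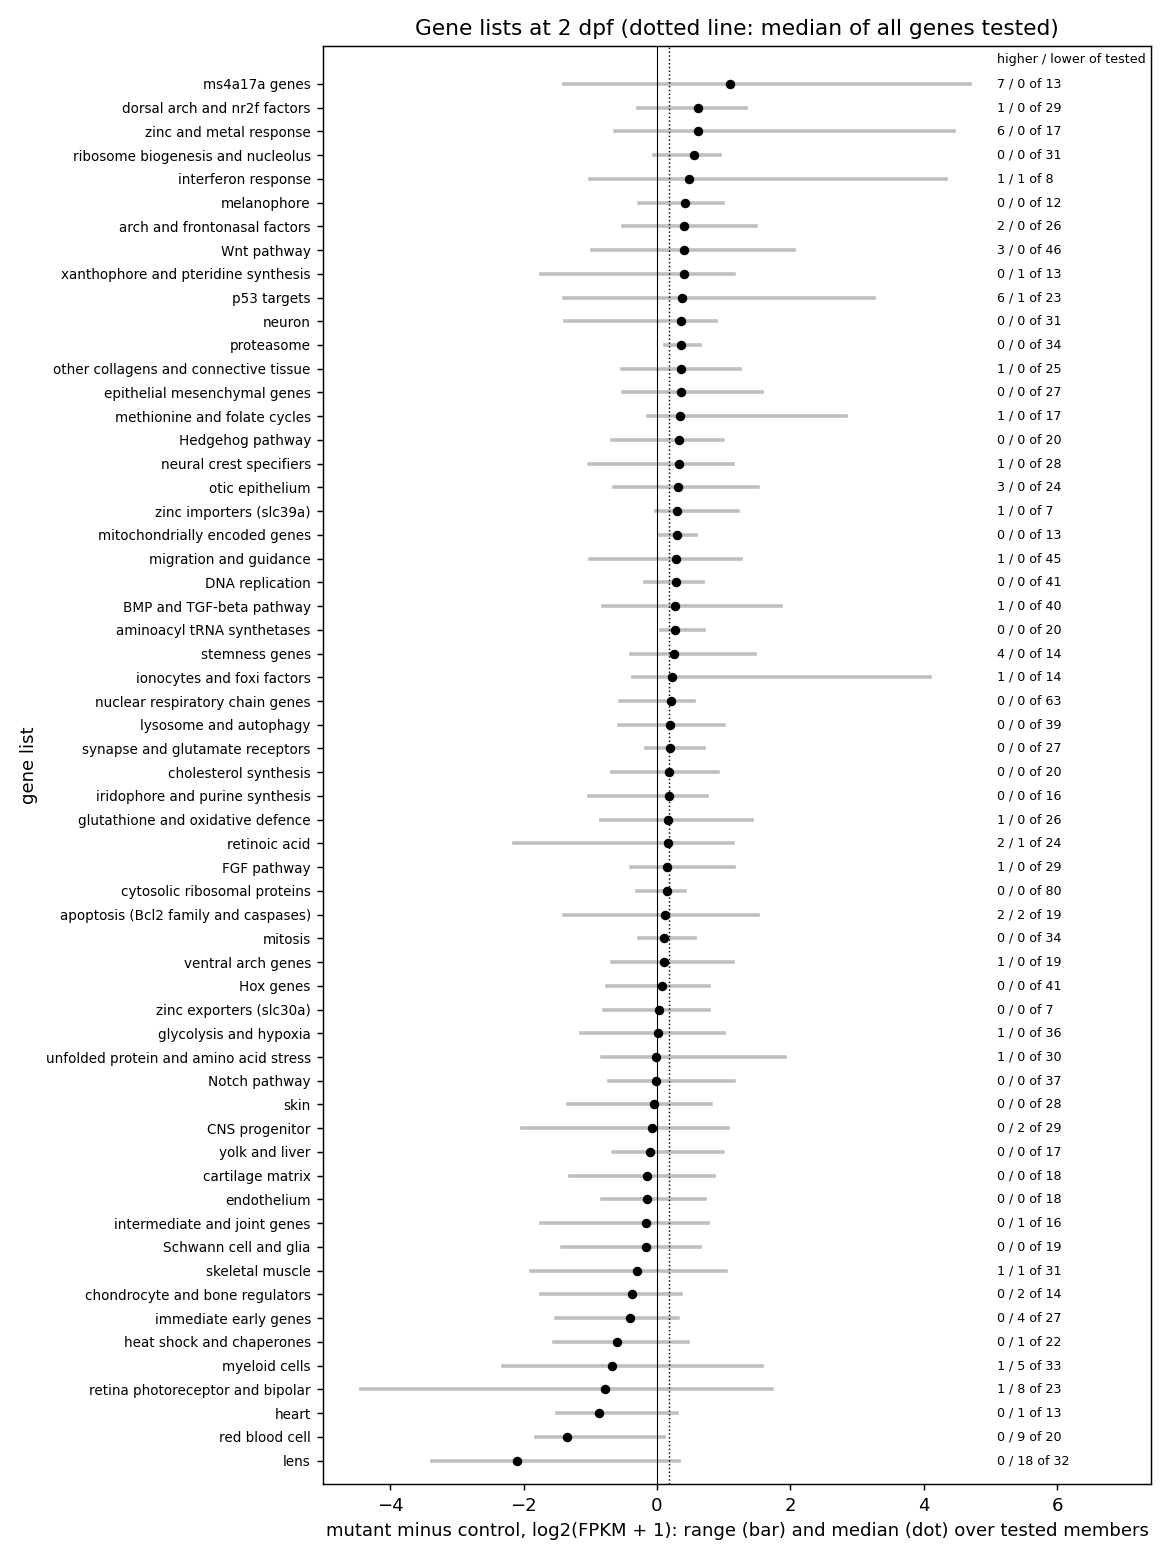
Range (bar) and median (dot) of the mutant minus control difference in log2(FPKM + 1) over the tested members of each gene list at 2 dpf, with the counts of members called higher and lower at the right. The *ms4a17a* genes, dorsal arch genes and metal genes have the highest medians, and lens, red blood cell, heart and retina genes the lowest.

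Several of the largest rises were of genes near 0 in controls, whereas *fthl28* and *cdkn1a*, given above, were not near 0 there. Genes with a control mean under 0.5 FPKM entered the test only through their mutant level. The *ms4a17a* genes encode membrane-spanning 4A proteins, a family best known from blood cells in mammals, and 7 of the 13 identifiers tested rose. They too were listed with earlier results of these data known, so this count is no test. ENSDARG00000093546, under the symbol *ms4a17a.10*, had the largest rise of any gene, from 0.92 and 0.90 FPKM in controls to 49.7 and 46.8 FPKM in mutants (log2 fold change 4.69, standard error 0.17, adjusted p = 0.000788). The other identifier of that symbol, ENSDARG00000095695, was at 36.6 and 56.1 FPKM in controls and 10.3 and 26.4 FPKM in mutants and was not called (adjusted p = 0.118). *ms4a17a.1* rose from 0.22 and 0.37 FPKM in controls to 6.54 and 5.63 FPKM in mutants (adjusted p = 0.00288) and *ms4a17a.2* rose from 0.44 and 0.79 FPKM in controls to 5.82 and 8.13 FPKM in mutants (adjusted p = 0.00746). *ms4a17a.9* was at 29.4 and 56.9 FPKM in controls and 19.6 and 37.1 FPKM in mutants. The copies that rose were thus low in controls, and 2 of the abundant ones were not called. Reads that match several copies make the level of each copy uncertain.

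*foxi1*, a forkhead factor of the otic placode and the PA pouches, went from near silence to a clear level, from 0.26 and 0.23 FPKM in controls to 20.2 and 20.1 FPKM in mutants (log2 fold change 4.09, standard error 0.17, adjusted p = 0.000788). None of the other 13 tested genes of ionocytes and *foxi* factors was called, and *atp6v1ba*, a subunit of the proton pump of ionocytes, was at 43.4 and 39.8 FPKM in controls and 39.8 and 52.9 FPKM in mutants. *cpn1*, which encodes the catalytic chain of carboxypeptidase N, was listed at 0 in both controls under ENSDARG00000096728 and was at 8.37 and 17 FPKM in mutants (adjusted p = 0.00519). Its second identifier, ENSDARG00000005185, was at 16.9 and 28.7 FPKM in controls and 32.6 and 21.1 FPKM in mutants. The remaining genes of the 15 largest rises have names of clones only, and no role is given for them here. Of these, *CR352342.1* rose from 3.31 and 1.51 FPKM in controls to 76.5 and 59.9 FPKM in mutants (log2 fold change 4.38) and *zgc:66313* rose from 0.19 and 0.26 FPKM in controls to 11.9 and 10.1 FPKM in mutants (log2 fold change 3.29). The others were *si:ch211-196h16.12*, *si:ch211-92l17.1*, *AL645792.2*, *si:ch211-226l4.6* and *si:dkey-280e8.1*, at mutant levels between 9.76 and 110 FPKM.

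The libraries were made to look for mechanisms of PA differentiation, and genes of crest progenitors and of stemness are given first. Of 28 neural crest specifiers tested, 1 was called (3.57%, against 3.52% of all genes), and the list median was 0.33. *sox10*, given above, and *foxd3*, which specifies early crest, at 17.7 and 20.99 FPKM in controls and 22.4 and 31.96 FPKM in mutants, were not called. *snai2*, a repressor of epithelial genes in migrating crest, was at 5.49 and 10.8 FPKM in controls and 16.7 and 18.5 FPKM in mutants (log2 fold change 1.08, standard error 0.30, adjusted p = 0.0978). Both mutants lay above both controls, but the controls differed by nearly 2-fold. Of 14 stemness genes, 4 rose (28.6%, against 3.52% of all genes) and none fell. The list was chosen with earlier results of these data known, so this share is no test. After median-ratio rescaling 2 of the 14 were called, after quantile normalization 1, and without the filter none of 17. *mycn*, a Myc family oncogene of progenitors, rose from 16 and 12.3 FPKM in controls to 44.4 and 37.1 FPKM in mutants (log2 fold change 1.47, standard error 0.20, adjusted p = 0.0235). *tert*, the catalytic subunit of telomerase, rose at low level from 0.51 and 0.41 FPKM in controls to 2.38 and 2.11 FPKM in mutants (log2 fold change 1.15, standard error 0.15, adjusted p = 0.0219). *lin28a*, which blocks maturation of let-7 microRNAs, rose from 1.2 and 1.44 FPKM in controls to 4.28 and 3.23 FPKM in mutants (adjusted p = 0.0436). *msx2b*, a homeobox factor counted among crest, stemness and ventral arch genes, rose from 13.3 and 18.6 FPKM in controls to 34.5 and 37.1 FPKM in mutants (adjusted p = 0.0423). The related *mycb* and *sox3* were at 50.9 and 62.8 FPKM in controls and 43.1 and 42.4 FPKM in mutants, and 64.5 and 29.2 FPKM in controls and 35.3 and 37.3 FPKM in mutants, respectively. None of the 4 was called without either 1 of the mutant libraries. *tert* and *lin28a* stayed under 5 FPKM in every library, and *tert* passed the filter only through its mutant level.

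Genes of the arches gave few calls in either direction. Of 29 dorsal arch and *nr2f* genes, 1 rose and none fell (3.45% called, against 3.52% of all genes). The list had a median of 0.62, and both mutants lay above both controls in 21 of 29, against 44.8% of all genes. The median was 0.39 after median-ratio rescaling and 0.345 without control replicate 1. The summed level was 333 and 504 FPKM in controls and 646 and 662 FPKM in mutants, so that the controls differed by 1.5-fold. The called gene was *prss35*, a secreted protease-like protein, which rose from 5.33 and 4.80 FPKM in controls to 13.8 and 13.4 FPKM in mutants (log2 fold change 1.27, standard error 0.17, adjusted p = 0.0219) and was not called in the fit of all 8 libraries or without either 1 of the mutant libraries. *jag1b*, the Notch ligand of the dorsal arch, was at 1.36 and 2.3 FPKM in controls and 6.14 and 4.40 FPKM in mutants (log2 fold change 1.15, standard error 0.24, adjusted p = 0.0586), and *grem2b*, a BMP antagonist, was at 22.1 and 47.7 FPKM in controls and 59.7 and 54.3 FPKM in mutants (adjusted p = 0.219). Both mutants were above both controls for *jag1b*, and the difference missed the threshold.

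Of 19 ventral arch genes, only *msx2b* was called (5.26%, against 3.52% of all genes). *hand2*, the transcription factor that defines the ventral domain, was at 56.8 and 92.9 FPKM in controls and 114 and 125 FPKM in mutants (log2 fold change 0.71, standard error 0.25, adjusted p = 0.156). In the intermediate domain, where the jaw joint forms, 1 of 16 genes was called (6.25%, against 3.52% of all genes), and it fell. *nkx3.2*, a homeobox factor of the joint, went from 17.5 and 35.3 FPKM in controls to 6.81 and 6.73 FPKM in mutants (log2 fold change -1.74, standard error 0.32, adjusted p = 0.0423). *dlx4a* was at 64.4 and 146 FPKM in controls and 31.2 and 42.4 FPKM in mutants (log2 fold change -1.39, standard error 0.38, adjusted p = 0.0978). In both genes control replicate 2 was higher than control replicate 1 by about 2-fold, the same order of the controls as in the sum of the list, 305 and 535 FPKM, and both mutants lay below both controls.

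Of 26 factors of the arch and frontonasal mesenchyme, 2 rose (7.69%, against 3.52% of all genes) and none fell. After median-ratio rescaling or quantile normalization none of the 26 was called, and in the fit of all 8 libraries 1 was. *prrx1b*, a factor of undifferentiated mesenchyme, rose from 9.21 and 15.5 FPKM in controls to 34.9 and 35.7 FPKM in mutants (log2 fold change 1.48, standard error 0.25, adjusted p = 0.0370). *eya1*, a transcriptional coactivator of cranial placodes and arches, rose from 9.15 and 7.86 FPKM in controls to 18.8 and 18.96 FPKM in mutants (adjusted p = 0.0330). *dlx2a*, expressed throughout the arch crest, was at 70.26 and 90.1 FPKM in controls and 106 and 105 FPKM in mutants (adjusted p = 0.241). None of the 26 was called without mutant replicate 1 or 2.

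Of 14 chondrocyte and bone regulators, 2 fell and none rose (14.3% called, against 3.52% of all genes), and the median was -0.38. It was -0.635 and -0.149 without control replicate 1 and 2, and no regulator was called after quantile normalization, in the fit of all 8 libraries or without either 1 of the mutant libraries. *runx2b*, a master factor of osteoblasts and hypertrophic chondrocytes, fell from 5.11 and 8.87 FPKM in controls to 1.41 and 1.95 FPKM in mutants (log2 fold change -1.54, standard error 0.27, adjusted p = 0.0389), and the other was *nkx3.2*. *sox9a*, which is needed for cartilage, was at 64.98 and 112 FPKM in controls and 67.6 and 62.6 FPKM in mutants (adjusted p = 0.413), with the mutants at the level of the lower control. None of 18 cartilage matrix genes was called (6 had an unadjusted p under 0.05, 2 of them higher), and *col2a1a*, the main collagen of cartilage, was at 7.79 and 14.6 FPKM in controls and 5.42 and 5.04 FPKM in mutants (log2 fold change -0.91, standard error 0.29, adjusted p = 0.124). The summed level of the regulators was 206 and 377 FPKM in controls and 180 and 192 FPKM in mutants. *ogna*, the small proteoglycan osteoglycin, was the 1 gene called of 25 other collagen and connective tissue genes (4%, against 3.52% of all genes). It rose from 15.4 and 13.4 FPKM in controls to 29.4 and 27.4 FPKM in mutants (adjusted p = 0.0426). No gene of this list was called at a pseudocount of 0.1, without the filter or in the fit of all 8 libraries. The same held after median-ratio rescaling and after quantile normalization.

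**Figure D5:**
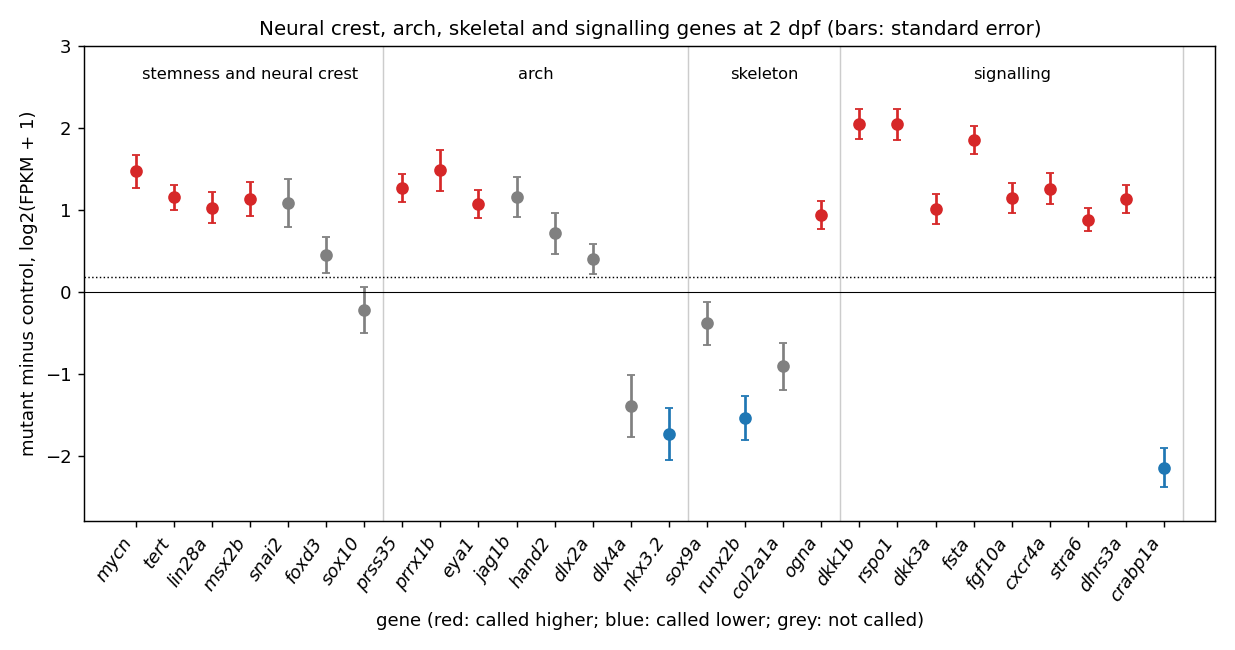
Mutant minus control difference in log2(FPKM + 1) with its standard error for neural crest, arch, skeletal and signalling genes at 2 dpf, where red genes were called higher, blue ones called lower and grey ones not called. *nkx3.2*, *runx2b* and *crabp1a* lie below 0 among the called genes, and the other called genes lie above it.

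Few genes of the signalling pathways were called, 6.52% of Wnt, 2.5% of BMP and TGF-beta and 3.45% of FGF genes against 3.52% of all genes. Without the filter 1 of 60 Wnt genes, 1 of 46 BMP and TGF-beta genes and none of 36 FGF genes were called. No FGF gene was called after median-ratio rescaling, after quantile normalization or in the fit of all 8 libraries. Of 46 Wnt genes, 3 rose and none fell. *dkk1b*, which blocks the Wnt coreceptor Lrp6, rose from 2.29 and 2.14 FPKM in controls to 11.04 and 13.6 FPKM in mutants (log2 fold change 2.05, standard error 0.19, adjusted p = 0.00676). *rspo1*, which strengthens Wnt signalling, rose from 0.12 and 0.05 FPKM in controls to 4.13 and 2.89 FPKM in mutants (log2 fold change 2.04, standard error 0.19, adjusted p = 0.00699), and *dkk3a*, a divergent Dickkopf protein, rose from 1.03 and 0.63 FPKM in controls to 2.62 and 2.72 FPKM in mutants (adjusted p = 0.0402). Of these, *rspo1* passed the filter only through its mutant level. The pathway's central *ctnnb1*, encoding beta-catenin, was at 76.3 and 91.1 FPKM in controls and 93.2 and 89.2 FPKM in mutants. Of 40 BMP and TGF-beta genes, *fsta* alone was called. It encodes follistatin, which binds activins and BMPs, and it rose from 2.04 and 2.1 FPKM in controls to 10.3 and 9.95 FPKM in mutants (log2 fold change 1.86, standard error 0.17, adjusted p = 0.00676), while the BMP target *id1* was at 404 and 702 FPKM in controls and 525 and 582 FPKM in mutants. Of 29 FGF genes, the ligand *fgf10a* rose from 3.32 and 4.01 FPKM in controls to 9.69 and 8.93 FPKM in mutants (adjusted p = 0.0311), and the feedback inhibitor *spry4*, a target of the pathway, was at 19.7 and 25.3 FPKM in controls and 25.1 and 22.4 FPKM in mutants.

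In the retinoic acid list, 3 of 24 genes were called (12.5%, against 3.52% of all genes). Of the 3, *stra6* passed the filter only through its mutant level. After quantile normalization or in the fit of all 8 libraries 1 of the 24 was called, lower in mutants. Without the filter none of 27 was called. *crabp1a*, a cytoplasmic binding protein for retinoic acid, fell from 60.9 and 39.9 FPKM in controls to 9.65 and 11.2 FPKM in mutants (log2 fold change -2.15, standard error 0.24, adjusted p = 0.0126). *dhrs3a*, an enzyme that returns retinaldehyde to retinol, rose from 4.59 and 4.49 FPKM in controls to 10.6 and 11.7 FPKM in mutants (adjusted p = 0.0288), and *stra6*, a retinol transporter, rose from 0.38 and 0.26 FPKM in controls to 1.38 and 1.48 FPKM in mutants (adjusted p = 0.0340). The paralog *crabp1b* was at 48.7 and 32.8 FPKM in controls and 47.2 and 48.4 FPKM in mutants, and was not called. None of 37 Notch genes, 20 Hedgehog genes and 41 Hox genes was called. Of the 98, 12 had an unadjusted p under 0.05, against 3806 of all 15453 genes. The Notch target *hey1* was at 3.68 and 3.67 FPKM in controls and 3.98 and 3.37 FPKM in mutants, without any difference beyond the spread. Of 45 migration and guidance genes 1 was called (2.22%, against 3.52% of all genes). This was *cxcr4a*, a receptor for the chemokine Cxcl12, which rose from 2.47 and 1.96 FPKM in controls to 6.31 and 7.05 FPKM in mutants (log2 fold change 1.26, standard error 0.18, adjusted p = 0.0273). Its ligand gene *cxcl12a* was at 39.8 and 61.5 FPKM in controls and 56.7 and 55.8 FPKM in mutants and the paralog *cxcr4b* at 59.3 and 41.9 FPKM in controls and 21.7 and 33.4 FPKM in mutants (adjusted p = 0.122).

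Lists of pigment cells, glia, neurons and synapses gave 1 call. None of 12 melanophore, 16 iridophore, 19 Schwann cell and glia, 31 neuron and 27 synapse genes was called. Of the 105, 27 had an unadjusted p under 0.05, against 3806 of all 15453 genes. *tyrp1b*, a melanin synthesis enzyme, was at 6.24 and 14.2 FPKM in controls and 8.32 and 22.2 FPKM in mutants, and replicate 2 was the higher in both genotypes. The iridophore enzyme *paics*, of purine synthesis, was at 25.7 and 49.4 FPKM in controls and 34.2 and 54.7 FPKM in mutants, with the same order of replicates. *fabp7a*, a fatty acid binding protein of radial glia, was at 2023 and 1402 FPKM in controls and 1091 and 1301 FPKM in mutants. Among 13 xanthophore genes the median was 0.40, and 11 had a log2 fold change above 0, as did 71.9% of all genes. The 1 called gene went the other way. This was the G protein regulator *rgs2*, which fell from 34.5 and 37.99 FPKM in controls to 7 and 14.6 FPKM in mutants (adjusted p = 0.0421). The pteridine enzyme *gch2* was at 59.9 and 129.6 FPKM in controls and 121 and 323 FPKM in mutants.

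Of the 15 largest falls, 8 were of lens or retina genes. Of 32 lens genes tested, 18 fell and none rose, both mutants lay below both controls in 29 (12.1% of all genes tested did so), and the median was -2.10. The summed level was 645 and 448 FPKM in controls and 45.8 and 150 FPKM in mutants. Crystallins, the structural proteins that make the lens transparent, led the list. *crygmx*, a gamma-M crystallin, fell from 21.7 and 24.8 FPKM in controls to 1.16 and 2.83 FPKM in mutants (log2 fold change -3.07, standard error 0.29, adjusted p = 0.00736). *crybb1*, a beta crystallin, fell from 116 and 93.3 FPKM in controls to 7.46 and 25.9 FPKM in mutants (log2 fold change -2.799, standard error 0.50, adjusted p = 0.0403). *cryba1l1* fell from 35.03 and 26.04 FPKM in controls to 1.31 and 6.69 FPKM in mutants (log2 fold change -2.89, standard error 0.52, adjusted p = 0.0420), *cryba4* fell from 42.6 and 33.05 FPKM in controls to 2.38 and 8.11 FPKM in mutants (adjusted p = 0.0311) and *crygm2d12* fell from 30.04 and 11.8 FPKM in controls to 0.46 and 2.21 FPKM in mutants (adjusted p = 0.0311). For each of these the level in mutant replicate 1 was the lowest of the 4 libraries. The abundant *crygm2d13* was at 58.5 and 38.2 FPKM in controls and 0.79 and 11.1 FPKM in mutants and was not called (adjusted p = 0.0776), and its mutants lay far apart. Without mutant replicate 1, 3 lens genes were lower, and without mutant replicate 2, 20 were. With no filter on low values none of 48 lens genes was called. Gamma crystallins are a family of near copies, and values of single copies are uncertain.

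Of 23 retina genes, 8 fell and 1 rose, with a median of -0.78. With no filter on low values 1 of 45 was called, lower in mutants. *gnb3a*, the transducin beta subunit of cone photoreceptors, had the largest fall of any gene, from 29.9 and 20.4 FPKM in controls to 0.03 and 0.38 FPKM in mutants (log2 fold change -4.43, standard error 0.25, adjusted p = 0.00225). It passed the filter only through its control level. *crx*, a homeobox factor of photoreceptor precursors, fell from 29.4 and 17.04 FPKM in controls to 1.18 and 2.45 FPKM in mutants (log2 fold change -3.09, standard error 0.33, adjusted p = 0.0104). *vsx1*, a homeobox factor of bipolar cells, fell from 52 and 21.3 FPKM in controls to 2.44 and 4.47 FPKM in mutants (log2 fold change -2.99, standard error 0.43, adjusted p = 0.0256). *pde6gb*, an inhibitory subunit of the photoreceptor phosphodiesterase, fell from 37.96 and 15.2 FPKM in controls to 3.47 and 5.65 FPKM in mutants (adjusted p = 0.0475). The falls of *otx5*, *gngt2a*, *rx3* and *rcvrn2* were between 1.09 and 1.99 on the log2 scale. Against these, the blue cone opsin *opn1sw2* rose from 0.63 and 0.56 FPKM in controls to 4.07 and 4.44 FPKM in mutants (log2 fold change 1.72, standard error 0.16, adjusted p = 0.00743). *neurod1*, a factor of photoreceptor progenitors and other neurons, was at 32.1 and 14.5 FPKM in controls and 11.7 and 11.98 FPKM in mutants and was not called. Without mutant replicate 1 and 2, 2 and 3 retina genes were lower. Of 29 genes in a list named for CNS progenitors, 2 fell (6.9%, against 3.52% of all genes). The list median was -0.08, and it was 0.36 and -0.54 without control replicate 1 and 2. The genes that fell were *neurod6b* (from 17.8 and 10.5 FPKM in controls to 1.95 and 3.47 FPKM in mutants, adjusted p = 0.0301) and *otx2b*, a factor of forebrain, midbrain and retina (from 13.3 and 5.89 FPKM in controls to 1.95 and 1.94 FPKM in mutants, adjusted p = 0.0488). For both, and for the retina genes whose levels are given here, control replicate 1 was higher than control replicate 2, if only slightly for *opn1sw2*. The same order held in the sums of the retina list (399 and 257 FPKM) and of the CNS progenitor list (394 and 200 FPKM), against 167 to 232 FPKM for these sums in mutants.

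Most of the embryonic globin genes were abundant in all libraries and fell in mutants. Of 20 red blood cell genes tested, 9 fell and none rose, with a median of -1.35, and the sum was 40060 and 25480 FPKM in controls and 9711 and 12470 FPKM in mutants. The embryonic globin *hbbe1.3* fell from 9063 and 5835 FPKM in controls to 2335 and 2836 FPKM in mutants (log2 fold change -1.498, standard error 0.24, adjusted p = 0.0311), and the other 7 called globin identifiers fell by between 1.37 and 1.82 on the log2 scale. *gata1a*, the master factor of erythroid cells, fell from 4.04 and 2.55 FPKM in controls to 0.88 and 0.88 FPKM in mutants (adjusted p = 0.0420). *alas2*, the first enzyme of heme synthesis in red cells, was at 13.7 and 5.84 FPKM in controls and 3.59 and 4.52 FPKM in mutants and was not called. The globin genes lie close together and are near copies, so that they count as few independent measurements. With no filter on low values none of 28 red blood cell genes was called. Without mutant replicate 1 and 2, none and 1 of the list were called.

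Of 33 myeloid genes, 5 fell and 1 rose, and the median was -0.67. With no filter on low values none of 34 was called. *lyz*, given above, had a log2 fold change of -1.09 with an adjusted p of 0.0559 and was not called. *cebpb*, a transcription factor of granulocytes and of inflammation, fell from 1735 and 2283 FPKM in controls to 539.9 and 889 FPKM in mutants (log2 fold change -1.52, standard error 0.27, adjusted p = 0.0402). *il1b*, the cytokine interleukin 1 beta, fell from 138 and 202 FPKM in controls to 49.2 and 41.6 FPKM in mutants (log2 fold change -1.86, standard error 0.23, adjusted p = 0.0157). *ncf1*, a subunit of the oxidase that makes the neutrophil burst, fell from 69.7 and 75.9 FPKM in controls to 18.4 and 25.9 FPKM in mutants (log2 fold change -1.69, standard error 0.21, adjusted p = 0.0170). The chemokine *cxcl8a* fell from 4.29 and 8.10 FPKM in controls to 1.36 and 1.12 FPKM in mutants (adjusted p = 0.0370) and the neutrophil gene *lect2l* fell from 322 and 337 FPKM in controls to 101 and 167 FPKM in mutants (adjusted p = 0.0442). The neutrophil granule protease gene *npsn* was at 1045 and 963 FPKM in controls and 389 and 655 FPKM in mutants (adjusted p = 0.0886), and the macrophage gene *mfap4* was at 589 and 826 FPKM in controls and 274 and 619 FPKM in mutants. *cd74a*, the invariant chain of antigen presentation, rose at low level from 0.35 and 0.98 FPKM in controls to 4.47 and 3.28 FPKM in mutants (adjusted p = 0.0311). Without mutant replicate 1, none was called, and without mutant replicate 2, 6 were lower.

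A further 5 of the 15 largest falls were of genes of inflammation or of innate defence. *nfkbiaa*, the inhibitor of NF-kB that NF-kB itself induces, fell from 325 and 509 FPKM in controls to 54.5 and 82.5 FPKM in mutants (log2 fold change -2.58, standard error 0.29, adjusted p = 0.0126). *ccl34b.1*, a chemokine, fell from 349 and 577 FPKM in controls to 31.9 and 93.03 FPKM in mutants (log2 fold change -3.02, standard error 0.49, adjusted p = 0.0335). *csf3b*, the growth factor of neutrophils, fell from 58.8 and 83.3 FPKM in controls to 8.48 and 7.53 FPKM in mutants (log2 fold change -2.98, standard error 0.22, adjusted p = 0.00288). *pglyrp5*, which recognizes bacterial peptidoglycan, fell from 53.5 and 69.4 FPKM in controls to 6.97 and 11.1 FPKM in mutants (log2 fold change -2.66, standard error 0.25, adjusted p = 0.00746), and *lgals3bpb*, a galectin-binding protein, fell from 49.4 and 62.7 FPKM in controls to 2.45 and 9.49 FPKM in mutants (log2 fold change -3.24, standard error 0.49, adjusted p = 0.0285). Of the rest of the 15, *fgfbp2b*, an FGF-binding protein, fell from 45.6 and 129 FPKM in controls to 14.7 and 9.03 FPKM in mutants (adjusted p = 0.0418), and *si:ch211-255g12.6* was at 7.41 and 11.2 FPKM in controls and listed at 0 in both mutants. The latter passed the filter only through its control level. The summed level of the myeloid list was 44400 and 46580 FPKM in controls and 17080 and 27400 FPKM in mutants. The part of cell number in these falls was not tested.

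Other tissues gave few calls or none. In skeletal muscle, 2 of 31 genes were called (6.45%, against 3.52% of all genes). *myf5*, which starts the myogenic programme, rose from 0.74 and 0.63 FPKM in controls to 2.83 and 2.02 FPKM in mutants (adjusted p = 0.0411), and *actc1a* under ENSDARG00000076126 fell from 21.3 and 18.5 FPKM in controls to 4.03 and 5.30 FPKM in mutants (log2 fold change -1.89, standard error 0.20, adjusted p = 0.0104), while ENSDARG00000042535 of the same symbol was at 95.1 and 71.2 FPKM in controls and 43.5 and 58.4 FPKM in mutants. In heart, *nppb*, a natriuretic peptide, fell from 16.4 and 11.6 FPKM in controls to 4.37 and 5.09 FPKM in mutants (adjusted p = 0.0311), and the myosin light chain *myl7* was at 87.1 and 51.1 FPKM in controls and 21.9 and 29.1 FPKM in mutants (adjusted p = 0.0580). The heart list summed to 258 and 173 FPKM in controls and 70.7 and 98.2 FPKM in mutants. Of 24 otic genes 3 rose (12.5%, against 3.52% of all genes). They were *eya1*, counted above among arch factors too, the calcium buffer *pvalb9* of hair cells (from 5.08 and 4.95 FPKM in controls to 15.4 and 12.5 FPKM in mutants, adjusted p = 0.0248) and the tight junction gene *cldna* (from 1.87 and 1.84 FPKM in controls to 5.88 and 4.44 FPKM in mutants, adjusted p = 0.0393). In the fit of all 8 libraries 3 otic genes were called, and after median-ratio rescaling 1. After quantile normalization none was called, and without the filter none of 32. None of 28 skin, 18 endothelium and 17 yolk and liver genes was called. Of the 63, 14 had an unadjusted p under 0.05, against 3806 of all 15453 genes. The skin keratin *krt4* was at 199.8 and 164 FPKM in controls and 122 and 178 FPKM in mutants, and the endothelial factor *fli1a* was at 8.13 and 13.01 FPKM in controls and 10.6 and 9.44 FPKM in mutants.

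Whether the effect of genotype at 2 dpf differed from that at 2.5 dpf was tested as an interaction over all 8 libraries. Of 16703 genes none was called by limma, 902 had an unadjusted p under 0.05, and the smallest adjusted p was 0.475. At 2.5 dpf by itself limma called none of 17379 genes either, 2128 had an unadjusted p under 0.05, and the smallest adjusted p was 0.058. The values of both stages are given side by side, and no fold change at 2.5 dpf passed the test. The log2 fold change of *cdkn1a* was 3.26 at 2 dpf and 3.58 at 2.5 dpf, that of *mt2* was 4.22 and 2.99, that of *foxi1* was 4.09 and 3.27, that of *gnb3a* was -4.43 and -4.61, and that of *nkx3.2* was -1.74 and -1.23. Other genes had smaller or opposite values at the later stage. The log2 fold change of *il1b* was -1.86 and -0.36, that of *hbbe1.3* was -1.498 and 0.43, and that of *cebpb* was -1.52 and -0.46. Over members tested at both stages, the red blood cell list had medians of -1.35 and 0.32, the lens list -2.24 and -0.67, the retina list -0.78 and -1.31, the p53 list 0.38 and 0.18, and the dorsal arch list 0.62 and 0.13, against 0.18 and 0.02 over all genes.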

How the data were processed

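RNA of sorted *sox10*:kikGR+ cells was copied from its poly(A) tail with the SMARTer kit, amplified, fragmented, and sequenced with paired ends. The authors aligned the reads to GRCz11 with HISAT and computed FPKM with StringTie. Versions are not given in the sources used here. The deposited FPKM, rounded to 2 decimals, hold no read counts, so the depth is unknown. They were used by gene identifier, without rescaling.

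Genotypes were compared on log2(FPKM + 1) over the 4 libraries of 2 dpf with limma (version 3.58.1, R 4.3.3), moderating variances along a trend in mean level. Genes averaging under 0.5 FPKM were left out of the test, while summed levels of a list cover all its identifiers. P-values were adjusted over the remaining genes by the Benjamini-Hochberg method, and genes under 0.05 were called. Adjusted p-values in the text are from this test. A p from single-gene permutation was not used, because 2 libraries per group cannot pass the threshold. The interaction of genotype and stage was fitted over 8 libraries. The calculation was tested on simulated data.

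The genes named are the targeted genes, the 15 largest rises and 15 largest falls among called genes, up to 6 called and 2 uncalled members of each of 59 gene lists, and genes that the study names. Some further members are named for contrast, and *lyz*, *phlda3*, *baxa* and the second identifiers of a symbol are among them. The lists were written from general knowledge, and they and the members were chosen with earlier results of these data known. Other settings tried were no filter or one at 2 FPKM, a pseudocount of 0.1, rescaling by median ratios or by quantiles, 1 fit over all 8 libraries, constant prior variance, a replicate block, and omission of each library in turn. Some members of the lists are not reported here and were left out of the list counts. No sequences are printed.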

Additional observations from a re-analysis of the deposited data

How the results depend on the processing

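The 544 calls at 2 dpf rest on few libraries and on the filter. The count was 47 without a filter on low values, 236 after quantile normalization, 320 with all 8 libraries in 1 fit and 830 with a replicate block, and it ranged from 0 to 227 with 1 library left out. Nothing in the labels ties same-numbered libraries to a shared clutch or day, and their deviations correlated by 0.144 across genes, over 2 pairs, so whether the numbers mark a shared batch is unknown. For the difference between stages the count was 0, with 1 gene called at a pseudocount of 0.1 and from 0 to 1 with 1 library left out. No called gene of those tested under an alternative changed direction in any alternative. Of 121 genes named with a test, *sox9a* alone changed sign, with values from -0.774 to 0.0014 with 1 library left out. Of these genes, 78 lost their call without a filter, 35 after quantile normalization, 42 in the fit of 8 libraries, 99 without either 1 of the controls, and 64 and 43 without mutant replicate 1 and 2. Calls in the lens and red blood cell lists fell from 18 and 9 to 3 and 1 in the fit of 8 libraries and to 10 and 1 after quantile normalization, whereas all 7 called p53 targets were called in both. With median-ratio rescaling, 5 of the named genes gained a call and 13 lost it. The unknown depth limits what can be said of genes under 1 FPKM.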

Other observations

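The genes in this section were chosen after their values were seen, from the 544 called at 2 dpf, and no count over them is given as a test. Beside *il1b*, *nfkbiaa* and the chemokines above, further genes that NF-kB is known to induce in activated white blood cells fell. *tnfb*, a tumour necrosis factor, fell from 144 and 208 FPKM in controls to 32.4 and 48.2 FPKM in mutants (log2 fold change -2.102, standard error 0.26, adjusted p = 0.0182). *acod1*, which makes the antimicrobial metabolite itaconate, fell from 62.02 and 85.6 FPKM in controls to 12.7 and 13.6 FPKM in mutants (log2 fold change -2.38, standard error 0.21, adjusted p = 0.00550). *cd83*, a surface protein of activated antigen-presenting cells, fell from 45.3 and 49.7 FPKM in controls to 8 and 12.1 FPKM in mutants (log2 fold change -2.16, standard error 0.22, adjusted p = 0.0104). The chemokine *ccl35.1* fell from 94.4 and 160.4 FPKM in controls to 15.9 and 26.8 FPKM in mutants (log2 fold change -2.52, standard error 0.33, adjusted p = 0.0210), and *gpr84*, a receptor of activated phagocytes, fell from 22.5 and 24.4 FPKM in controls to 5.49 and 6.59 FPKM in mutants (log2 fold change -1.80, standard error 0.18, adjusted p = 0.00872). In each of these the replicates of a genotype lay within 2-fold of each other. Their log2 fold changes at 2.5 dpf were -0.53 for *tnfb*, -0.90 for *acod1*, -0.43 for *cd83*, -0.54 for *ccl35.1* and 0.03 for *gpr84*, with none called at that stage and no difference between stages called. The colony-stimulating factors of macrophages went the other way from a receptor gene for them. *csf1b* rose from 5.98 and 8.08 FPKM in controls to 23.3 and 26.5 FPKM in mutants (log2 fold change 1.70, standard error 0.20, adjusted p = 0.0147) and *csf1a* rose from 1.65 and 2.27 FPKM in controls to 8.26 and 6.45 FPKM in mutants (adjusted p = 0.0246), while *csf1rb* fell from 2.87 and 3.40 FPKM in controls to 0.56 and 0.94 FPKM in mutants (adjusted p = 0.0286).

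Some genes of hormones and neuropeptides were also called. *ghrh*, growth hormone releasing hormone, rose from 0.66 and 0.52 FPKM in controls to 11.8 and 12.9 FPKM in mutants (log2 fold change 3.07, standard error 0.17, adjusted p = 0.00225). *tshba*, the beta chain of thyrotropin, was listed at 0 in both controls and was at 3.72 and 3.47 FPKM in mutants (adjusted p = 0.00267). *cart3*, a peptide precursor of the hypothalamus, rose from 7.22 and 3.45 FPKM in controls to 35.8 and 32.3 FPKM in mutants (log2 fold change 2.53, standard error 0.30, adjusted p = 0.0147), and *chga*, a protein of secretory granules, rose from 23.7 and 14.7 FPKM in controls to 73.9 and 49.2 FPKM in mutants (log2 fold change 1.64, standard error 0.29, adjusted p = 0.0402). The sum of the 37 neuron genes was 1404 and 767 FPKM in controls and 1447 and 1220 FPKM in mutants, and its part in these rises was not tested. Some genes of cell cycle control and growth were called too. *cdkn2a/b*, a kinase inhibitor of the INK4 family, was listed at 0 in both controls and was at 4.86 and 3.03 FPKM in mutants (adjusted p = 0.00710). *ccnd3*, encoding cyclin D3, rose from 0.54 and 0.41 FPKM in controls to 3.43 and 3.11 FPKM in mutants (log2 fold change 1.53, standard error 0.16, adjusted p = 0.0104), *igf2a*, an insulin-like growth factor, rose from 1.01 and 1.57 FPKM in controls to 8.02 and 7.12 FPKM in mutants (log2 fold change 1.91, standard error 0.20, adjusted p = 0.0104), and *exo5*, a DNA repair exonuclease, rose from 1.40 and 1.44 FPKM in controls to 9.43 and 8.41 FPKM in mutants (log2 fold change 2.03, standard error 0.17, adjusted p = 0.00550).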
